A study of Mus musculus with 6 samples.

Results

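The 8 genes described here are Tcf7, Lef1, Axin1, Axin2, Ctnnb1, Apc, Gsk3b and Wnt3, the TCF/LEF transcription factors and the core of the Wnt/beta-catenin pathway. They were taken by gene symbol, and all 8 had a row among 47069 Ensembl genes in both deposited tables. The set was also chosen by its levels at 72 h, where Axin2 and Wnt3 had been seen to differ in opposite directions between genotypes, so the genotype values at 72 h are a description and carry no test. The 6 RNA sequencing libraries are of mouse regulatory T cells, which the labels describe as sorted CD4+GFP+ cells of lymph node and spleen, activated with Dynabeads for 48 h or 72 h. By their own genotype labels, libraries labelled cKO came from Foxp3CreNoc4lfl/fl mice and libraries labelled Het from Foxp3CreNoc4l+/fl mice, while the extraction protocol gives Foxp3CreNoc4l+/fl for both. Both genotypes as labelled carried the Cre recombinase driven by Foxp3, the gene that defines regulatory T cells, and Het cells carried a floxed Noc4l allele as well. At 72 h the libraries were cKO 2 and Het 1 in one deposited table and cKO 4 and Het 3 in another, and at 48 h they were cKO 2 and Het 1 in the first table. The labels do not say whether libraries came from separate or pooled animals, so the p-values below rest only on these libraries. No libraries shared genotype, time and table. The error behind the p-values therefore comes from how far genotype differences varied between times and tables, not from the spread of replicates.

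Wnt proteins are secreted ligands that bind Frizzled and LRP receptors. Without them, a destruction complex of Axin, APC and the kinases GSK3 and CK1 marks beta-catenin for degradation. With them, beta-catenin accumulates and acts with TCF-1 (encoded by Tcf7) and LEF-1 on target genes, of which Axin2 is a widely used readout and a negative feedback component. In T cells, TCF-1 and LEF-1 are known for their part in thymic development, in naive and memory-like states and in regulatory T cells, and their transcripts tend to fall with effector differentiation.

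The promoters of Axin2 and Wnt3 are shown because these genes differed between genotypes in opposite directions at 72 h. The start of Lef1 that held most matches to CTTTGA, a form of the TCF/LEF core, is shown with them. Sequences are from RefSeq on GRCm38.p6, a later build than the mm9 named for the data, and run from 250 bases before to 50 bases after an annotated start. Axin2 lies at chr11:108920099-108920398, Wnt3 at chr11:103773925-103774224 and this Lef1 start, 1 of 4 annotated, at chr3:131156044-131156343, all on the plus strand. Capitals mark CTTTGA, searched on both strands (TCAAAG on the other). Forms of the core with another last base were not searched.
Axin2: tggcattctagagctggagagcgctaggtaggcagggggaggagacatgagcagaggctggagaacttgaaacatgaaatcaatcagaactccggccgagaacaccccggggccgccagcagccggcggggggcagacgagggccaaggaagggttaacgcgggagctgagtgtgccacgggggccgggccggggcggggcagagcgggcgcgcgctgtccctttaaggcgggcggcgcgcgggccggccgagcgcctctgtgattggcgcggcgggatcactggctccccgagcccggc
Wnt3: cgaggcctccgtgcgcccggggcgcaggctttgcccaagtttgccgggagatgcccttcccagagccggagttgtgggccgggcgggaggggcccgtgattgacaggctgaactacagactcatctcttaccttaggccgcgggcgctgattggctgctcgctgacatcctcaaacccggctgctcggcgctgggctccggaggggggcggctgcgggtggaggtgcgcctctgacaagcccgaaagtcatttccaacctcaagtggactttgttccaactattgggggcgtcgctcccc
Lef1: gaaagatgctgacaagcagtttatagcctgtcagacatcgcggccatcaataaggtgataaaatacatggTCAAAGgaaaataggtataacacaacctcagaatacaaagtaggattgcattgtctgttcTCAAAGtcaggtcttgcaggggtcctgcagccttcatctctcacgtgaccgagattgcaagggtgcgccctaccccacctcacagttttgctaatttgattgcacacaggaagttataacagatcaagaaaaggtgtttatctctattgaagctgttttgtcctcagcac
Neither the Axin2 nor the Wnt3 window held CTTTGA, and the Lef1 window held 2 matches, at bases -180 and -120 from the start. Of 11 windows of the 6 members with an entry, 2 held a match, the other being that of Gsk3b at base -77. Over all 32851 promoter windows of this length, 16% held CTTTGA on either strand.

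Before the members, the libraries were checked against their labels. Noc4l, the floxed gene, was higher in the library labelled cKO of every pair, with 81.7 and 58.1 FPKM in cKO 2 and cKO 4 at 72 h against 48.8 and 40.8 in Het 1 and Het 3, and 124 in cKO 2 at 48 h against 99.1 in Het 1. The gene-level value of the target thus went against the labels. A single value per gene cannot show a loss of the floxed exons, so the labels could not be checked at exon level. Directions below are stated for libraries as labelled. FPKM are fragments scaled to gene length and to library size. Estimated depth was 16.5 to 28.8 M fragments per library. Foxp3 ran from 147 to 336 FPKM and Cd4 from 304 to 474 over the 6 libraries, and the 6 regulatory T cell markers summed to between 2608 and 3415. Markers of other cells were also measured. The summed level of 13 neutrophil and myeloid markers was 381 and 76.0 FPKM in cKO 2 and cKO 4 at 72 h against 39.0 and 21.9 in Het 1 and Het 3, and 446 in cKO 2 at 48 h against 44.1 in Het 1. In cKO 4 a single gene, Ltf, gave 75.3 of this sum, and 7 of the 13 markers, S100a8, S100a9 and Lyz2 among them, were at 0. Ltf also gave nearly all of the Het sums, with 38.2 and 21.4 in Het 1 and Het 3 at 72 h and 43.5 in Het 1 at 48 h. For 8 markers of CD8 T and NK cells the sum was 312 and 123 in cKO 2 and cKO 4 at 72 h, against 83.7 and 14.4 in Het 1 and Het 3, and 44 in cKO 2 at 48 h, against 30.9 in Het 1. Among these, Nkg7, which encodes a cytotoxic granule protein, had 148 and 89.1 in cKO 2 and cKO 4 at 72 h against 29.1 and 6.48 in Het 1 and Het 3. The granzyme gene Gzma had 74.9 and 22.8 in cKO 2 and cKO 4 at 72 h against 14.0 and 1.92 in Het 1 and Het 3. Nkg7 and Gzma gave most of the sum of cKO 4. Cd8a had 2.24 FPKM in cKO 4 against 1.01 in Het 3, and Cd8b1 was about level, at 4.47 and 4.69. Apart from Cd8b1 and Klrb1c, the genes of this list were higher in cKO 4 than in Het 3. Of this list, 6 of 6 genes tested had a positive difference between 72 h and 48 h, and Cd8a passed the test for time described below. The 8 B cell markers summed to 95.1 and 9.33 in cKO 2 and cKO 4 at 72 h, against 14.6 and 10.1 in Het 1 and Het 3, and to 26.2 in cKO 2 at 48 h, against 9.83 in Het 1. The 6 erythroid markers summed to 24.6 and 1.45 in cKO 2 and cKO 4 at 72 h, against 27.0 and 5.89 in Het 1 and Het 3, and to 30.9 in cKO 2 at 48 h, against 1.74 in Het 1. The globin gene Hba-a1 of this list had 7.58 FPKM in cKO 2 and was listed at 0 in cKO 4 at 72 h, against 19.0 and 4.68 in Het 1 and Het 3. Hbb-bt was also lower in both libraries labelled cKO at 72 h, but Hbb-bs, Hba-a2 and Alas2 were higher in both. Hbb-bs had 9.13 and 0.421 FPKM in cKO 2 and cKO 4, against 0.0827 in Het 1 and 0 in Het 3. In such bulk samples, fewer cells of a type and less RNA per cell cannot be told apart.

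Beta-catenin was the most abundant of the 8 transcripts and Wnt3 the least. Mean levels over the 6 libraries were 228 ± 25.5 FPKM for Ctnnb1, 119 ± 34.6 for Tcf7, 69.9 ± 11.6 for Lef1, 49.7 ± 5.87 for Axin1, 42.4 ± 6.04 for Gsk3b, 25.1 ± 3.23 for Apc, 16.5 ± 9.67 for Axin2 and 1.49 ± 0.948 for Wnt3 (SD over 6 libraries of all groups). In this order the ranges of neighbours did not overlap between Ctnnb1 and Tcf7, between Gsk3b and Apc, and between Axin2 and Wnt3. The other neighbours overlapped, and Apc stood above Axin2 in 4 of 6 libraries. The ratio of the highest to the lowest library was 6.40 for Wnt3, 5.40 for Axin2, 2.28 for Tcf7, 1.62 for Lef1 and at most 1.40 for Axin1, Ctnnb1, Apc and Gsk3b. Wnt3 and Axin2 helped to choose the set by their differences at 72 h, so nothing is read from their place at the top. Among the other members Tcf7 had the widest span. These ratios also include differences between the deposited tables.

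**Figure D1:**
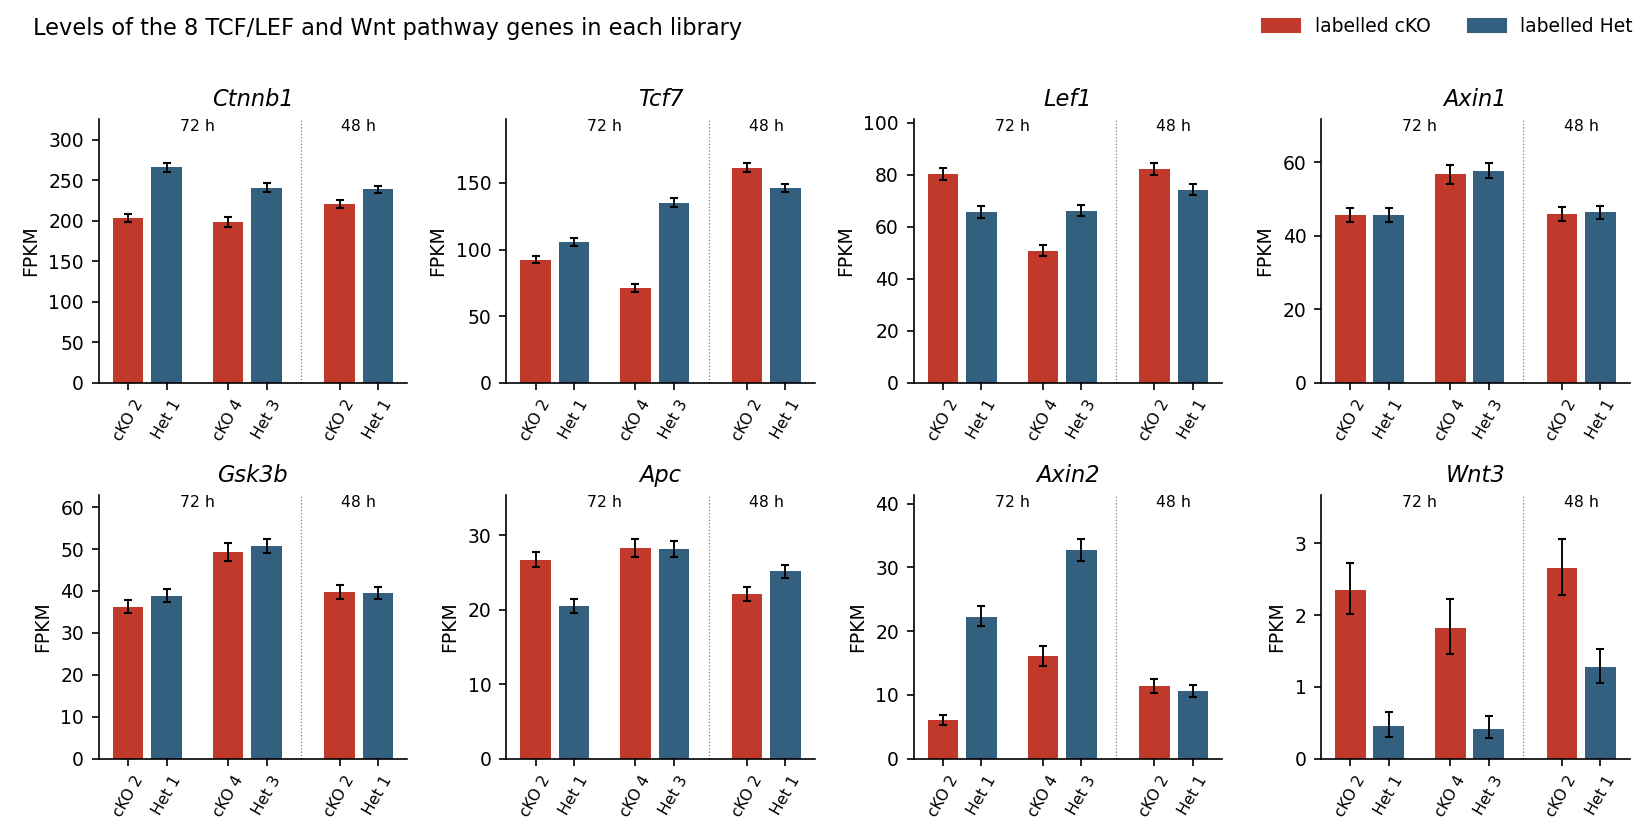
Level of each member (y axis, FPKM) in each library (x axis), with 72 h left of 48 h and each library labelled cKO left of its Het partner. Bars are single libraries and error bars are 95% counting intervals from estimated fragments, which leave out variation between animals. Axin2 was below Het and Wnt3 above Het in both pairs at 72 h, and Axin1 was nearly level within every pair.

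Axin2 and Wnt3, whose differences at 72 h helped to choose the set, were lower and higher, respectively, in the libraries labelled cKO. Axin2 (ENSMUSG00000000142) had 6.06 FPKM in cKO 2 against 22.3 in Het 1, and 16.1 in cKO 4 against 32.7 in Het 3. Within each deposited table the library labelled cKO was the lower. The level was 3.68-fold lower in cKO 2 than in Het 1 and 2.04-fold lower in cKO 4 than in Het 3. The fit to both pairs gave a log2 fold change of -1.35 ± 0.23 (SE, n = 2 per genotype). Here and below, the SE of a fitted change is limma's, which borrows from all genes and does not show how closely the pairs agree. At 48 h Axin2 had 11.4 FPKM in cKO 2 and 10.6 in Het 1, a ratio of 1.07 with a 95% counting interval of 0.942 to 1.22, so no difference was detectable there at this depth. Axin2 estimates rested on 246 to 1353 fragments per library. The second table had the higher Axin2 at 72 h in both genotypes, by 2.65-fold between cKO 4 and cKO 2 and by 1.47-fold between Het 3 and Het 1.

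Wnt3 (ENSMUSG00000000125), a ligand of the canonical pathway, was scarce in every library. It had 2.36 FPKM in cKO 2 against 0.451 in Het 1 at 72 h, and 1.82 in cKO 4 against 0.414 in Het 3. At 48 h it had 2.65 FPKM in cKO 2 and 1.28 in Het 1. The 3 libraries labelled cKO stood above all 3 Het libraries, a comparison across tables and times. The library labelled cKO was also the higher of each pair. In estimated fragments these were 173 against 29, 92 against 31, and 184 against 113. The ratio was 5.23 in the first pair at 72 h (95% counting interval 3.51 to 8.04), 4.39 in the second (2.89 to 6.82) and 2.08 at 48 h (1.64 to 2.65). On the log2(FPKM + 1) scale, which understates changes of scarce transcripts, both pairs at 72 h together gave a log2 fold change of 1.10 ± 0.25 (SE, n = 2 per genotype). In all 3 pairs the library labelled cKO had the higher myeloid sum and the higher cytotoxic (CD8 T and NK) sum. In cKO 4 the myeloid sum was nearly all Ltf, and the cytotoxic sum was mostly Nkg7 and Gzma. The B cell sum was higher in cKO 2 than in Het 1 at both times and about level between cKO 4 and Het 3. The erythroid sum was lower in both libraries labelled cKO at 72 h, where its genes disagreed, and higher in cKO 2 at 48 h. The part of any of these 4 marker lists in the Wnt3 and Axin2 values was not tested.

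On this scale 1 of the 8 members was past 1.5-fold higher in both pairs at 72 h, against 4.64% of the 12488 genes that averaged 1 FPKM or more, and 1 was past 1.5-fold lower, against 3.02%. Since this contrast helped to choose the members, nothing is read from the shares or from the ranks that follow. Among those genes Axin2 had the 111th lowest and Wnt3 the 349th highest fitted change. At 48 h, with 1 library per genotype and no test, 1 member (Wnt3) was past 1.5-fold higher and 0 lower, against 3.14% and 1.87% of 12064 genes.

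**Figure D2:**
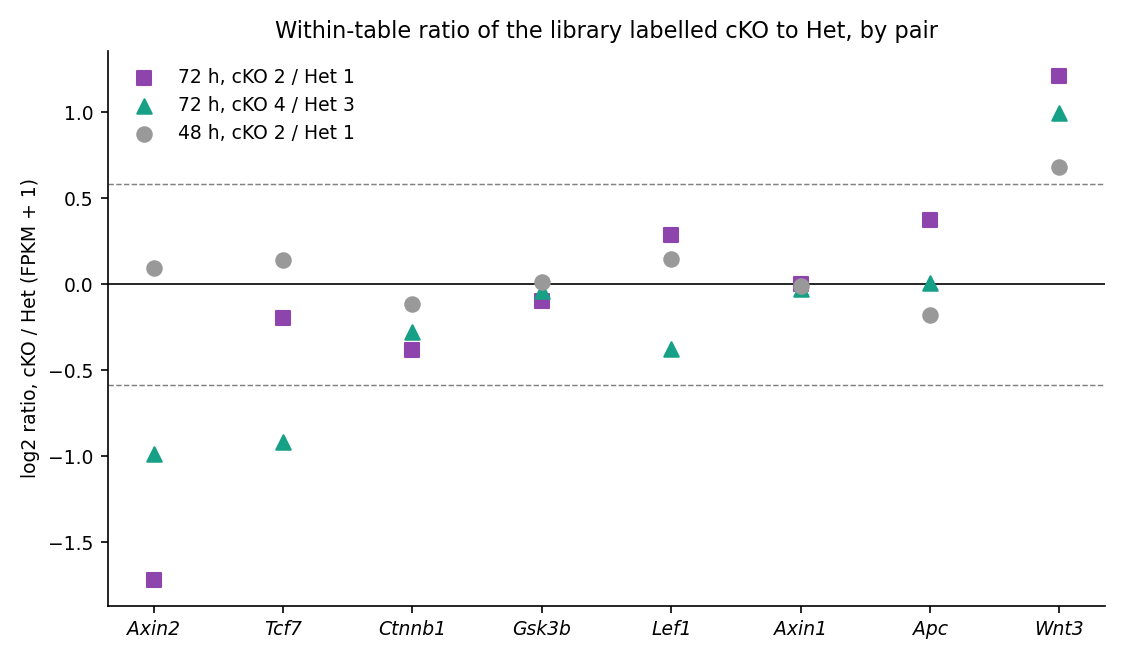
Ratio of the library labelled cKO to Het within each pair (y axis, log2 of FPKM + 1), for the 8 members (x axis) in order of the fitted change at 72 h. Squares and triangles are the pairs at 72 h, circles the pair at 48 h, and dashed lines mark 1.5-fold. Wnt3 was above the upper line in all 3 pairs, and Axin2 below the lower line in both pairs at 72 h but near 0 at 48 h.

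The TCF/LEF factors differed less evenly between pairs. Tcf7 (ENSMUSG00000000782, TCF-1) had 92.4 FPKM in cKO 2 against 106 in Het 1 at 72 h, and 70.9 in cKO 4 against 135 in Het 3. It was lower in the library labelled cKO of both pairs, with ratios of 0.872 and 0.525, and the difference of the second pair was the larger. At 48 h Tcf7 stood at 161 FPKM in cKO 2 and 146 in Het 1, above every library at 72 h. Over both pairs at 72 h the log2 fold change was -0.56 ± 0.22 (SE, n = 2 per genotype).

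Lef1 (ENSMUSG00000027985), which binds the same DNA core, went opposite ways in the pairs at 72 h. It had 80.2 FPKM in cKO 2 against 65.6 in Het 1, and 50.9 in cKO 4 against 66.3 in Het 3, and at 48 h 82.2 in cKO 2 and 74.3 in Het 1. Libraries labelled cKO lay on both sides of the Het libraries, and the fitted change of -0.05 ± 0.21 (SE, log2) averaged over pairs that disagree in sign. A quotient chosen after the values were seen, Tcf7 over Lef1 within a library, was 1.15 in cKO 2 and 1.39 in cKO 4 at 72 h against 1.61 in Het 1 and 2.04 in Het 3. At 48 h it was 1.96 in cKO 2 and 1.97 in Het 1.

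Ctnnb1 (ENSMUSG00000006932), which encodes beta-catenin, was modestly lower in each library labelled cKO. It had 204 FPKM in cKO 2 against 266 in Het 1 and 199 in cKO 4 against 241 in Het 3 at 72 h, and 220 in cKO 2 against 239 in Het 1 at 48 h. The ratios were 0.765, 0.824 and 0.923, none past 1.5-fold, and across tables the groups did not overlap at 72 h. The fitted change at 72 h was -0.33 ± 0.12 (SE, log2).

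The destruction complex was close to level between genotypes. Axin1 (ENSMUSG00000024182), the constitutive scaffold, had 45.7 FPKM in cKO 2 and 45.6 in Het 1, 56.7 in cKO 4 and 57.8 in Het 3 at 72 h, and 45.9 in cKO 2 and 46.4 in Het 1 at 48 h. The kinase gene Gsk3b (ENSMUSG00000022812) had 36.2 FPKM in cKO 2 and 38.9 in Het 1, 49.3 in cKO 4 and 50.7 in Het 3 at 72 h, and 39.7 in cKO 2 and 39.4 in Het 1 at 48 h. For both genes the tables differed more than the genotypes. The scaffold gene Apc (ENSMUSG00000005871) had 26.7 FPKM in cKO 2 against 20.4 in Het 1, a ratio of 1.31, but 28.2 in cKO 4 and 28.1 in Het 3. At 48 h Apc was the lower in the library labelled cKO, with 22.1 FPKM in cKO 2 and 25.1 in Het 1. The fitted changes at 72 h were -0.013 ± 0.12 for Axin1, -0.071 ± 0.12 for Gsk3b and 0.19 ± 0.16 for Apc (SE, log2).

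The time difference had no part in choosing the members. It was tested with limma on log2(FPKM + 1) over all 6 libraries with genotype and table as terms, so that the time difference itself comes from the first table. Its error came from how far genotype differences varied between times and tables. That error includes the genotype values at 72 h that helped to choose Axin2 and Wnt3. None of the 8 members passed a Benjamini-Hochberg adjusted p of 0.05, and 0 of 8 lay under an unadjusted 0.05. Of 12394 genes tested, 3 were called higher at 72 h than at 48 h (0.0242%) and 0 lower (0%), while 1374 lay under an unadjusted p of 0.05. The 3 were Cd8a, the granzyme gene Gzmb and the transglutaminase gene Tgm2, with log2 differences of 4.09 ± 0.20, 4.54 ± 0.29 and 3.28 ± 0.13 (SE). The second table was lower at 72 h for all 3. Cd8a had 39.0 and 2.24 FPKM in cKO 2 and cKO 4 and 20.3 and 1.01 in Het 1 and Het 3 at 72 h, against 0.992 in cKO 2 and 0.466 in Het 1 at 48 h. Gzmb had 811 and 227 in cKO 2 and cKO 4 and 379 and 182 in Het 1 and Het 3 at 72 h, against 22.1 in cKO 2 and 23.7 in Het 1 at 48 h. Tgm2 had 69.4 and 15.0 in cKO 2 and cKO 4 and 84.9 and 20.7 in Het 1 and Het 3 at 72 h, against 6.02 in cKO 2 and 8.12 in Het 1 at 48 h. The calls rested on the libraries at 48 h, since leaving out either of them left 0. The fit has 2 residual degrees of freedom, so a missed threshold says little.

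Tcf7 had the time difference with the lowest unadjusted p of the 8. It stood at 92.4 FPKM at 72 h against 161 at 48 h in cKO 2, and at 106 against 146 in Het 1, so it was lower at 72 h in both genotypes. The log2 difference was -0.63 ± 0.26 (SE, limma adjusted p = 0.459), and it was -0.28 without cKO 2 at 48 h and -0.98 without Het 1 at 48 h. Wnt3 was likewise lower at 72 h in both, with ratios to 48 h of 0.887 in cKO 2 (95% counting interval 0.717 to 1.10) and 0.353 in Het 1 (0.226 to 0.535), and its log2 difference was -0.39 ± 0.25 (SE, limma adjusted p = 0.586).

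Axin2 moved in opposite directions with time in the 2 genotypes, and its average change was therefore near 0. At 72 h it was at 0.534 times its level at 48 h in cKO 2 (95% counting interval 0.455 to 0.626) and at 2.11 times in Het 1 (1.88 to 2.36). The log2 difference over both was 0.10 ± 0.42 (SE, limma adjusted p = 0.944), the largest error among the members. This error holds the disagreement between genotypes, so the missed threshold says nothing of change within a genotype. The log2 difference ran from -0.62 without Het 1 at 48 h to 0.82 without cKO 2 at 48 h. Whether the time course differed between genotypes was not tested, since that difference includes the contrast at 72 h that chose the genes. Apc also ran opposite ways, at 1.21 times in cKO 2 and 0.813 times in Het 1. Ctnnb1 did so by less, at 0.923 times in cKO 2 (95% counting interval 0.893 to 0.954) and 1.11 times in Het 1 (1.08 to 1.15). Lef1, Axin1, Ctnnb1 and Gsk3b at 72 h ranged from 0.883 to 1.11 times their level at 48 h, and the log2 differences of these 4 and Apc had limma adjusted p of 0.828 to 0.984.

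**Figure D3:**
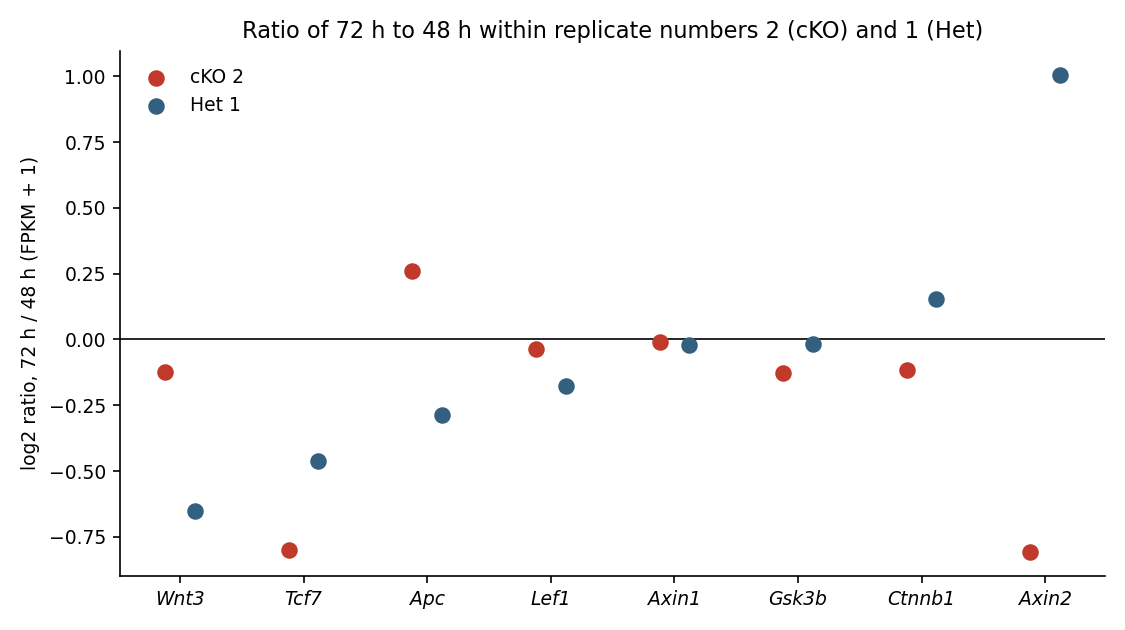
Ratio of the 72 h to the 48 h library (y axis, log2 of FPKM + 1) for each member (x axis), for cKO 2 and Het 1, each point being 1 pair of libraries. Tcf7 and Wnt3 were below 0 in both genotypes, and Axin2 lay at 1.01 in Het 1 and -0.81 in cKO 2.

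The wider pathway was read from 9 lists of 111 genes, of which 110 had a row and 50 averaged 1 FPKM or more at 72 h. Past 1.5-fold in both pairs at 72 h were 2 of these 50 in the higher and 2 in the lower direction, close to the 4.64% and 3.02% of all genes tested. Their median fitted log2 change was 0.045, beside 0.081 over all 12488 genes. For time, 0 of 51 passed the adjusted limma threshold in either direction and 3 lay under an unadjusted 0.05, with a median of 0.0022 beside 0.0018 over all genes.

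Among ligands, only Wnt3 and Wnt10b averaged 1 FPKM or more over the 6 libraries. Of the other 18 Wnt genes, 17 had a mean under 1 FPKM, and 3 of these (Wnt2, Wnt3a and Wnt7b) were listed at 0 in every library. The exception was Wnt10b, with a mean of 1.37 FPKM beside 1.49 for Wnt3. At 48 h Wnt10b was above Wnt3 in both libraries. Wls, which carries Wnt proteins to the cell surface, had 9.53 and 24.0 FPKM in cKO 2 and cKO 4 at 72 h against 11.9 and 15.6 in Het 1 and Het 3, so its pairs disagreed.

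Of 18 receptor genes, 5 averaged 1 FPKM or more, and the coreceptor gene Lrp6 was the highest, at 29.3 FPKM over the libraries. Of these 5, 0 were past 1.5-fold higher and 1 lower in both pairs at 72 h, beside 4.64% and 3.02% of all genes. This was Fzd7, a Frizzled receptor gene, with 1.46 and 1.03 FPKM in cKO 2 and cKO 4 against 4.78 and 2.32 in Het 1 and Het 3 at 72 h. At 48 h it had 1.47 FPKM in cKO 2 and 1.76 in Het 1. All 3 Dishevelled genes were measured, and none was past 1.5-fold in both pairs, beside the same shares of all genes. Their median fitted change was 0.037.

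Of the other 12 destruction complex genes and 17 nuclear cofactors averaging 1 FPKM or more, 0 were past 1.5-fold in both pairs at 72 h. Over all genes the shares were 4.64% higher and 3.02% lower, so little is read from this. The median fitted changes of these lists were 0.11 and 0.20. Of the other TCF genes, Tcf7l2 ran from 0.327 to 1.25 FPKM over the libraries, under the filter on the mean. Tcf7l1 had 5.31 and 4.17 FPKM in cKO 2 and cKO 4 against 6.09 and 7.54 in Het 1 and Het 3 at 72 h, while at 48 h it had 7.30 in cKO 2 and 4.41 in Het 1.

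Of 7 inhibitors that averaged 1 FPKM or more, 1 was past 1.5-fold higher and 1 lower in both pairs at 72 h, beside 4.64% and 3.02% of all genes, and the other 5 passed in neither direction. Kremen2, a receptor for Dickkopf inhibitors, had 1.58 and 3.10 FPKM in cKO 2 and cKO 4 against 7.32 and 5.44 in Het 1 and Het 3 at 72 h. Rnf43, a membrane ubiquitin ligase that removes Frizzled receptors and is itself a Wnt target, had 6.54 and 15.1 FPKM in cKO 2 and cKO 4 against 2.88 and 6.51 in Het 1 and Het 3. For Rnf43 the tables differed about as much as the genotypes, and cKO 2 and Het 3 were about level. At 48 h Kremen2 had 0.63 FPKM in cKO 2 and 0.72 in Het 1, and Rnf43 had 7.05 in cKO 2 and 4.43 in Het 1. Znrf3, the partner of Rnf43, had 9.34 and 9.82 FPKM in cKO 2 and cKO 4 at 72 h against 9.93 and 13.3 in Het 1 and Het 3.

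Few other listed targets of beta-catenin were measurable at this level. Of 18, 6 averaged 1 FPKM or more, and 2 of these were past 1.5-fold higher in both pairs at 72 h and 0 lower, beside 4.64% and 3.02% of all genes. The higher ones were Rnf43 and the adhesion receptor gene Cd44, which had 68.9 and 64.9 FPKM in cKO 2 and cKO 4 against 32.0 and 34.1 in Het 1 and Het 3. Classical targets such as Nkd1, Sp5, Lgr5 and Ccnd1 were all under 0.6 FPKM in every library, and Myc had 154 and 94.3 in cKO 2 and cKO 4 against 131 and 160 in Het 1 and Het 3.

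**Figure D4:**
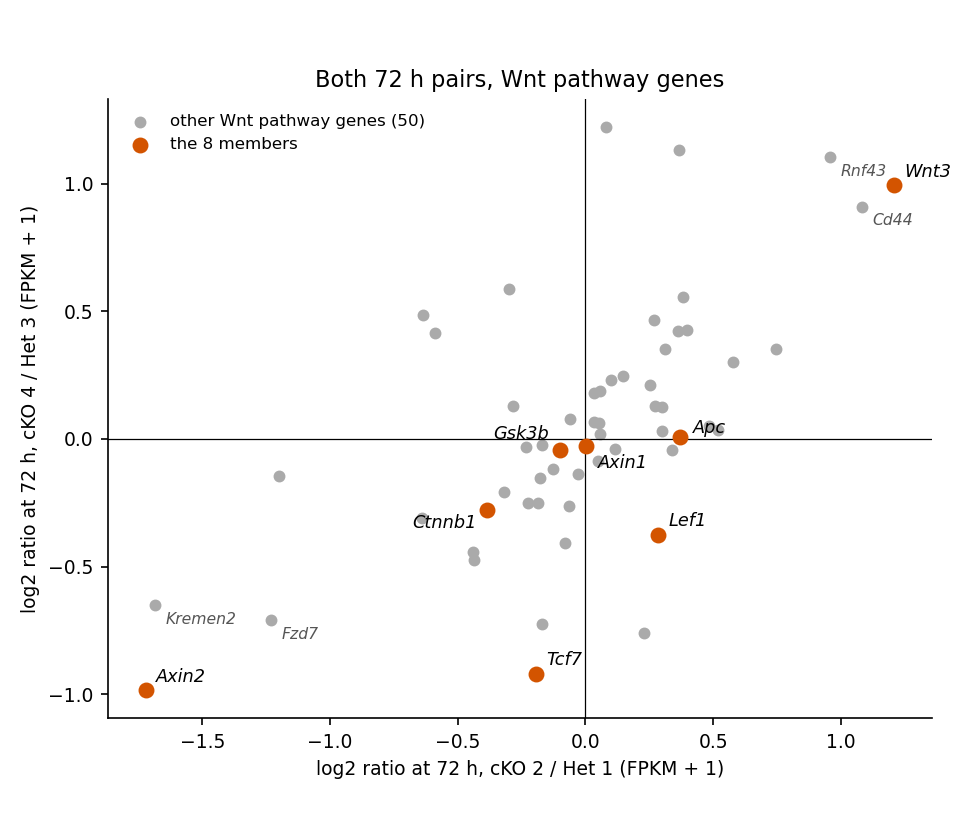
Ratio of the library labelled cKO to Het at 72 h in the first pair (x axis) and the second pair (y axis), both log2 of FPKM + 1, for the 8 members and 50 other Wnt pathway genes that averaged 1 FPKM or more. Axin2 lies at the lower left with Kremen2 and Fzd7, and Wnt3 at the upper right with Rnf43 and Cd44.

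Genes linked to TCF-1 and LEF-1 in T cells were read as a further list. Of 12, 2 were past 1.5-fold higher and 3 lower in both pairs at 72 h, beside 4.64% higher and 3.02% lower over all genes, with a median fitted change of 0.041. For time, 0 passed the adjusted limma threshold and 2 lay under an unadjusted 0.05. Id3, an inhibitor of E proteins, had 38.0 and 42.5 FPKM in cKO 2 and cKO 4 against 117 and 93.3 in Het 1 and Het 3. Across tables, each library labelled cKO was below both Het libraries. Also lower was S1pr1, a lymphocyte egress receptor, and the higher ones were the chemokine receptor genes Ccr7 and Cxcr5, all 3 named after their values were seen. Their fitted changes were -1.10 ± 0.27, 0.90 ± 0.16 and 0.93 ± 0.23 (SE, log2).

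The genes whose pattern was most like that of a member were sought among 8659 protein-coding genes that averaged 5 FPKM or more, by Pearson's r over the 6 libraries after subtracting each table's mean. For Axin2 they were H2afy (a macroH2A histone variant), the kinase gene Stk10 and Iqgap3, at r of 0.998, 0.997 and 0.996. For Tcf7 they were the mitochondrial carrier gene Slc25a25, the zinc finger gene Wiz and Vars (valyl-tRNA synthetase), at 0.998, 0.998 and 0.996. For Wnt3 they were Acadm, an enzyme gene of fatty acid oxidation, the tetraspanin gene Cd82 and Slc38a10, at 0.998, 0.996 and 0.996. These values describe 6 libraries that share tables, and so many genes were searched that high values are easily reached.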

How the data were processed

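Per the labels' protocols, a SMART-Seq v4 kit for low input gave the cDNA. Per the submitters' processing notes, Bowtie2 2.2.3, TopHat2 2.0.12, HTSeq 0.6.1 and mm9 were used, and the sources used here do not say in which roles or with which annotation or strand setting, so reads of overlapping or antisense genes may be mixed. The authors deposited FPKM, 1 value per gene and library, in 2 tables. Of 47347 shared rows, 278 with running numbers were left out, and 46488 Ensembl IDs matched a symbol.

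Members and lists were chosen with earlier results of these data known. Values were analysed as log2(FPKM + 1) for genes averaging 1 FPKM or more, with limma 3.58.1 in R 4.3.3 (variance trend, Benjamini-Hochberg over all genes). The time fit was tested on simulated data, and the genotype fit was not. Genotype changes were fitted at 72 h with the table as a term. The SE of each fitted change is limma's moderated error, drawn toward the trend over all genes. Alternatives covered pseudocount, filter, scaling, variance trend, replicate number and each library left out. Apart from the members, genes named are those past 1.5-fold in both 72 h pairs with the largest changes, up to 2 per list, or past the time test; marker genes at 0, ligands, Wls, Lrp6, Tcf7l1, Tcf7l2, Znrf3, Myc and other low targets, S1pr1, Ccr7 and Cxcr5 were named after their values were seen. Hbb-bt, Hbb-bs, Hba-a2, Alas2, Cd8b1 and Klrb1c were also named after their values were seen. One gene of the T cell list is counted but not reported by name here. Fragments were estimated from FPKM and mean annotated transcript length: 87.1% to 88.9% of low values lay within 0.02 of a whole number, against 2.95% to 3.68% with lengths scrambled. Intervals of ratios (Clopper-Pearson) and levels (exact Poisson) cover counting error only. Python 3.11.15 was used for tables and figures.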

Additional observations from a re-analysis of the deposited data

Results flagged for a closer look

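For 4 members both differences between the libraries labelled cKO and Het at 72 h were opposite in sign to that at 48 h. This difference between times was not tested, and some of these values were level within counting error. Axin2 had log2 ratios of -1.72 and -0.98 in the pairs at 72 h, against 0.092 at 48 h, where it was level within counting error (95% counting interval of the ratio 0.942 to 1.22). Tcf7 had -0.20 and -0.92 at 72 h, against 0.14 at 48 h. Apc had 0.37 and 0.0072 at 72 h, against -0.18 at 48 h, and the second pair at 72 h was level within counting error (ratio 1.01, 95% counting interval 0.949 to 1.06). Gsk3b had -0.099 and -0.042 at 72 h, against 0.011 at 48 h, and its sign at 48 h turned with quantile normalization and with TPM rescaling. It was level within counting error at 48 h (95% counting interval of the ratio 0.955 to 1.06) and in the second pair at 72 h (0.920 to 1.02). With 1 library per genotype at 48 h, variation between libraries is unknown there.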

How the results depend on the processing

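None of the 8 members passed the time test in any alternative run, where limma adjusted p ran from 0.343 upward. The number of genes called for time was 3, and 0 without a filter on low values, 1 with a pseudocount of 5, 0 with the replicate number as a block, and 0 to 4 when a library was left out. Here 0 remained without Het 1 at 48 h or cKO 2 at 48 h and 1 without Het 1 at 72 h. Under an unadjusted 0.05 there were 1747 genes without a filter, 984 with the block, and 874 and 1342 without those 48 h libraries. Nothing in the labels ties a replicate number to an animal. Axin2's time difference of 0.10 became -0.62 without Het 1 at 48 h, -0.54 without Het 1 at 72 h, 0.82 without cKO 2 at 48 h and 0.74 without cKO 2 at 72 h. The 956 genes past 1.5-fold at 72 h became 599 with a minimum mean of 5 FPKM and 444 with a pseudocount of 5. The split of 579 higher and 377 lower became 444 and 495 with median centring and 431 and 492 with quantile normalization. Leaving out a library at 72 h leaves the genotype fit with the other pair alone, so it only gives back that pair's ratio. The range of Axin2 at 72 h, from -1.72 to -0.98, has these single-pair ratios at its ends. Wnt3 stood at 2.03 with a pseudocount of 0.1, 0.38 with 5 and 1.33 after TPM rescaling. Lef1 changed sign without Het 3 or cKO 4, to 0.28, which is the ratio of its first pair. Wnt3 rested on 29 and 31 fragments in Het at 72 h, which limits its ratios.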

Other observations

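Other scarce Wnt ligand genes, chosen after their values were seen, lay under the filter at 72 h but were higher in libraries labelled cKO as well. Wnt10b had 2.06 and 0.859 FPKM in cKO 2 and cKO 4 at 72 h against 0.300 and 0.172 in Het 1 and Het 3, and 3.14 in cKO 2 at 48 h against 1.67 in Het 1. Wnt10a had 0.783 and 1.21 FPKM in cKO 2 and cKO 4 at 72 h, was listed at 0 in Het 1 and had 0.106 in Het 3, and at 48 h had 1.43 in cKO 2 against 0.739 in Het 1. In each of the 3 pairs both genes were higher in the library labelled cKO. Wnt2b, a further ligand gene at this level, had 0.398 and 0.998 FPKM in cKO 2 and cKO 4 at 72 h against 0.578 and 1.24 in Het 1 and Het 3.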
